A study of Mus musculus with 24 samples.

Results

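Mouse pancreatic tumour pieces can carry very different amounts of normal exocrine pancreas, and the comparison reported here asks which genes went with it. The libraries were chosen by a measured value: the 24 RNA libraries of the series were ordered by the share of their counts that fell on Ctrb1, which encodes chymotrypsinogen B, a digestive enzyme precursor made by acinar cells. The 8 libraries with the highest share are called acinar-rich, the 8 with the lowest share acinar-poor, and the 8 between them are given as values beside that comparison. These middle libraries enter only the fits that use the Ctrb1 share itself. The sets are not groups of the study, so the Ctrb1 levels and those of the other acinar enzymes are a description with no test, and a difference between the sets says which genes went with Ctrb1 and nothing about treatment.

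The series measured total RNA of tumours by bulk sequencing in 4 groups of 6 libraries (PBS control, GEM, IGEL and LIGEL), taken on day 24. The sample titles read muscle while the tissue field reads pancreatic tumour, and the group names are not expanded in the labels. Mouse strain, tumour model, sex and age are not given in the sources used here, nor is it stated that each library came from its own animal. The p-values therefore reflect only how much these libraries differed from each other, which may be technical. The series title speaks of losartan priming before a nanocarrier, but the labels do not say which group received which agent.

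The exocrine pancreas is built of acinar cells, which pack digestive enzymes into zymogen granules and release them when acetylcholine or cholecystokinin arrives, and of ducts that carry the secretion away. A small set of transcription factors keeps acinar cells differentiated. Among them PTF1A binds DNA together with an E-box partner and RBPJL, and MIST1 (gene Bhlha15) builds up the secretory machinery. Islets of endocrine cells lie between the acini, and vessels, nerves, fat and connective tissue run through the lobules.

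PBS replicate 5 had 7.93% of its counts on Ctrb1, GEM replicate 6 had 4.39%, IGEL replicate 4 had 3.21% and LIGEL replicate 4 had 2.25%. The other 4 acinar-rich libraries were PBS replicate 1 at 2.13%, GEM replicate 4 at 1.92%, PBS replicate 4 at 1.33% and IGEL replicate 2 at 1.28%. The first library outside the set, GEM replicate 2, had 0.820%. The acinar-rich set therefore held 3 PBS, 2 GEM, 2 IGEL and 1 LIGEL libraries.

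At the low end, LIGEL replicate 3 at 0.201% lay just outside the acinar-poor set and IGEL replicate 5 at 0.182% just inside it. PBS replicate 3 had 0.157%, GEM replicate 5 had 0.0568% and LIGEL replicate 1 had 0.0314%. Still lower were LIGEL replicate 2 at 0.00576%, IGEL replicate 1 at 0.00250%, and GEM replicate 1 and IGEL replicate 6 at 0.00181% each. This set held 1 PBS, 2 GEM, 3 IGEL and 2 LIGEL libraries, and because the groups are unevenly spread over the sets, group entered every fit as a covariate unless stated otherwise.

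**Figure D1:**
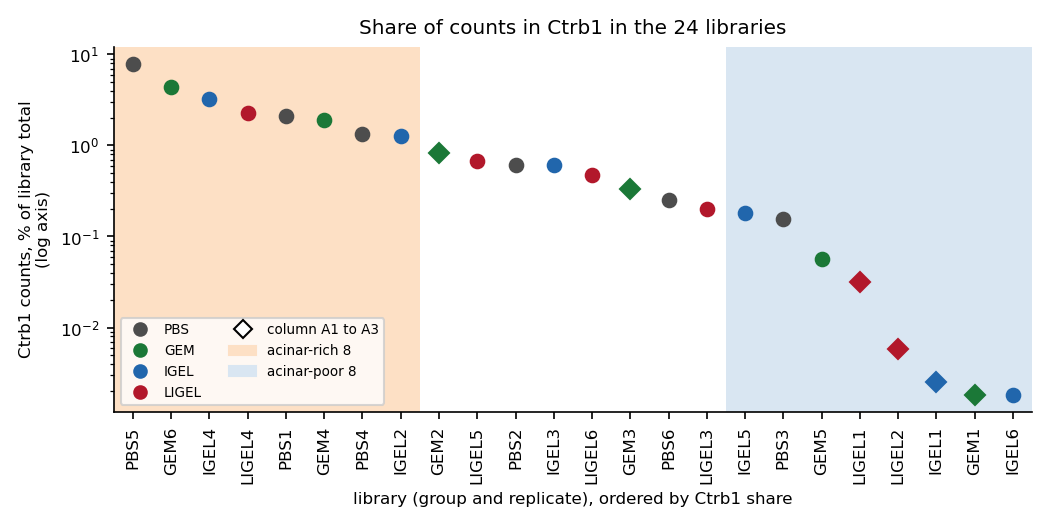
Share of each library's counts on Ctrb1, in percent on a log axis, for the 24 libraries in falling order, coloured by group, with diamonds for libraries whose count columns are named A1 to A3. The shaded acinar-rich set runs from 7.93% down to 1.28% and the acinar-poor set from 0.182% down to 0.00181%.

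Library totals were 27.1 to 38.7 M counts (M, 1e6) in the acinar-rich set and 33.0 to 38.8 M in the acinar-poor set, and mitochondrial genes took 0.921 to 1.53% and 1.13 to 1.45% of them. PBS replicate 5 stands apart: the acinar enzymes took 46.5% of its counts, against 3.65% in the lowest acinar-rich library, and its TMM factor, the scaling for RNA composition, was 0.498. Of the 24 libraries, 6 have count columns whose names start with A1, A2 or A3, and the other columns run from A7 to A24. These 6 include 4 of the 8 acinar-poor libraries (LIGEL replicates 1 and 2, IGEL replicate 1 and GEM replicate 1) and 0 of the 8 acinar-rich ones. What the column names stand for is not given in the sources used here, so list medians and the main genes of each list are also stated without these libraries or in fits that avoid them. Skeletal muscle genes took 0.0431% of the counts of IGEL replicate 4 and at most 0.00316% in any other library, and Ctrb1 was counted in all 24.

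The acinar enzymes followed Ctrb1. Of 39 enzyme genes that were counted, 36 were measured well enough to fit. For 32 of these every acinar-rich library lay above every acinar-poor one, against 2.67% of all other genes. Ctrb1 itself is among the 36 and the 32, and its separation was fixed by the choice of libraries. The median log2 fold change of the 36, acinar-rich minus acinar-poor, was 7.13, from -0.17 for Dnase1 to 9.65 for the amylase gene Amy2a2. Ctrb1 itself was at 11951, 22414 and 159576 CPM (counts per 1e6 counts, scaled with TMM factors, here and below as the lowest, median and highest library of a set) in the acinar-rich set and at 17.2, 174 and 1685 CPM in the acinar-poor set. In bulk tissue, fewer acinar cells and less enzyme RNA per cell cannot be told apart.

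With the enzymes left out, 1326 of 17733 genes (7.48%) differed, 941 (5.31%) higher and 385 (2.17%) lower in the acinar-rich set, by edgeR's quasi-likelihood test at a Benjamini-Hochberg adjusted p under 0.05. The higher genes moved far more: 821 of the 941 changed by at least 1 on the log2 scale and 327 by at least 3, against 84 and 5 of the 385 lower genes. The sets did not overlap for 474 genes (2.67%) with the acinar-rich libraries above and 140 genes (0.789%) with the acinar-poor libraries above. The middle 8 libraries, which did not enter this fit, had a median between those of the sets for 923 of the 941 higher genes (98.1%) and 360 of the 385 lower genes (93.5%). They are middle by the same Ctrb1 order that made the sets, and the share was not taken over all genes.

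These counts move with single libraries. LIGEL replicate 4 and PBS replicate 3 are each the only library of their group in a set. With group in the model, leaving out such a library means that the rest of its group no longer informs the set difference. The part of this in the counts was not tested. Without LIGEL replicate 4, the only acinar-rich library of its group, 105 genes were higher and 6 lower (0.587% and 0.0335% of the genes tested), and without IGEL replicate 4 the counts were 270 and 34 (1.51% and 0.19%). Without GEM replicate 1 they were 370 and 38, without GEM replicate 4 they were 456 and 62, without GEM replicate 6 they were 518 and 123, and without PBS replicate 3 they were 360 and 109. Leaving out IGEL replicate 6 gave 481 and 77, LIGEL replicate 1 gave 524 and 115, and LIGEL replicate 2 gave 574 and 126. The lower count alone fell by over 1.5 times, to 215, 123 and 109, without GEM replicate 5, IGEL replicate 1 and IGEL replicate 2. Calls increased without PBS replicate 5 (1846 and 1549, 10.3% and 8.64% of the genes tested), PBS replicate 4 (1740 and 1343) or IGEL replicate 5 (2249 and 963, 12.6% and 5.38%), so counts of list members in such fits are to be read against those of all genes.

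The A1 to A3 libraries matter most for the test. With them left out, or with a term for them, edgeR called 0 genes in either direction: 1584 higher and 471 lower genes had an unadjusted p under 0.05 without them, and 1522 and 938 with the term. On the same libraries limma voom with sample quality weights called 226 higher and 13 lower genes (1.2% and 0.0689%) without them and 986 and 579 (5.56% and 3.27%) with the term. With the term and without PBS replicate 5, edgeR called 88 and 3 (0.491% and 0.0167%). When the log2 Ctrb1 share itself was the predictor in the 18 libraries outside those columns, edgeR called 1424 genes higher (8.03%) and 294 lower (1.66%), among them 807 of the 941 and 189 of the 385. Without PBS replicate 5 the same fit on 17 libraries called 1149 (6.48%) and 516 (2.91%), and on all 24 libraries with a term for the columns it called 2079 (11.7%) and 858 (4.84%). Without such a term the numbers were larger: 3090 (17.4%) and 1774 (10%) with the share in all 24 libraries, 2393 (11%) and 1201 (5.51%) with DESeq2 on the 16, and 3494 (19.7%) and 2984 (16.8%) with voom. The fit on 18 libraries, called the 18-library fit below, is scaled to the mean gap in log2 Ctrb1 share between the sets, 7.42. That gap includes A1 to A3 libraries, which this fit leaves out, and Ctrb1's own fitted log2 fold change between the sets was 6.11. Sizes in the 18-library fit and between the sets are therefore not like for like. This fit uses the Ctrb1 values that chose the sets and shares libraries with the comparison, so its calls and p-values are no independent support. All 941 and all 385 genes kept the sign of their fold change without the A1 to A3 libraries and with the term for them. The genes were chosen for a difference in these same libraries, so the kept signs are no independent support. The 16 libraries without the 4 in A1 to A3 columns are called the 12 remaining libraries below. Both acinar-poor LIGEL libraries are among those left out, so LIGEL does not inform the set difference there. Whether the lost calls came from fewer libraries or from the columns was not tested. Fold changes and medians in the 12 remaining libraries are edgeR's, which called no gene there (smallest adjusted p 0.327). Calls and adjusted p are voom's, a fit chosen after seeing the data. They are to be read against the 1.2% higher and 0.0689% lower of all genes. Voom's own medians were smaller in size in most lists, such as acinar transcription factors (2.87 against edgeR's 3.36). In some lists, such as MHC class II (0.95 against 0.85), they were not.

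**Figure D2:**
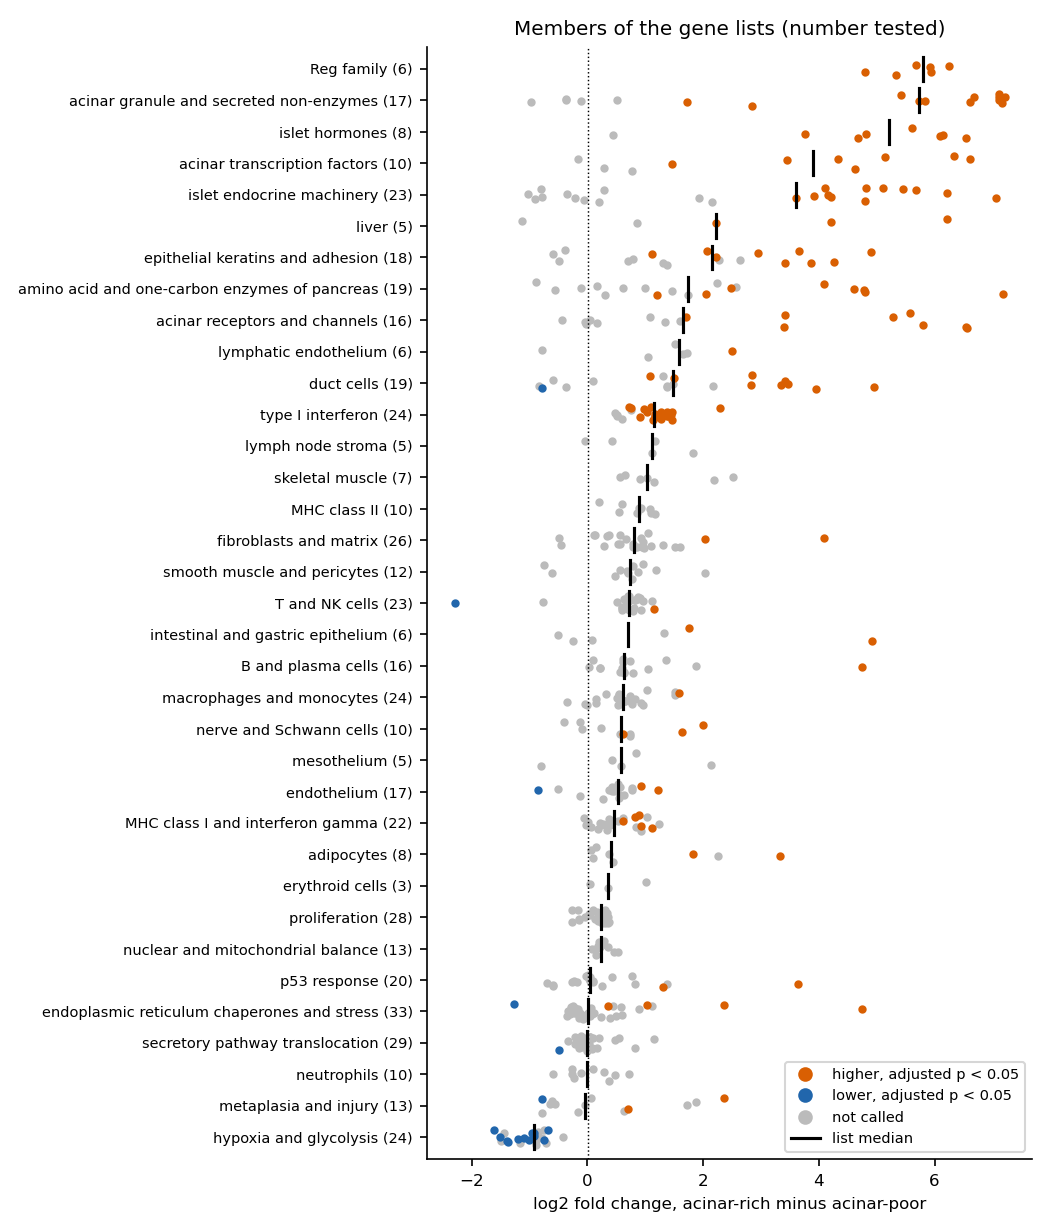
Log2 fold change, acinar-rich minus acinar-poor, of every tested member of the gene lists, one row per list with the number tested, coloured where edgeR called the gene. The granule, acinar factor, Reg and islet lists reach medians of 3.60 to 5.80, the type I interferon list sits at 1.15 and the hypoxia and glycolysis list at -0.93, while the median of all genes tested is 0.02.

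Of the 10 acinar transcription factors tested, 7 were higher (70%, against 5.31% of all genes) and none lower. The list median was 3.89 on the log2 scale. Rbpjl, the acinar-restricted partner of PTF1A (chromosome 2, 164403141 to 164415448, mm10), was at 35.6, 108 and 2216 CPM in the acinar-rich set and at 0, 0.743 and 6.10 CPM in the acinar-poor set. Every acinar-rich library was above every acinar-poor one, and the middle libraries, at 2.74, 14.5 and 47.3 CPM, filled the gap between them. The log2 fold change was 6.62 ± 1.11 (SE) with an adjusted p of 0.00768. Differences of mean log2 CPM were 5.39 (PBS), 8.0 (GEM), 7.55 (IGEL) and 6.75 (LIGEL). The PBS value rests on 1 acinar-poor library. That of LIGEL sets 1 acinar-rich library against 2 acinar-poor ones, both in A1 to A3 columns.

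Bhlha15, which encodes MIST1 (chromosome 5, 144190286 to 144194441), was at 12.7, 45.1 and 419 CPM against 0.0561, 0.547 and 1.72 CPM. Its sets were also fully apart, with a log2 fold change of 6.33 ± 0.84 and an adjusted p of 0.00504. Ptf1a was at 0.760, 2.0 and 13.5 CPM in the acinar-rich set and at most 0.328 CPM in the acinar-poor set, where the median library had none (5.14 ± 0.87, adjusted p = 0.00787). Gata4, Foxp2 and Nr5a2, which act with PTF1A in acinar identity or pancreas development, were higher by 4.33, 4.63 and 3.46, and the secretory regulator Creb3l1 by 1.47. Xbp1, which drives the unfolded protein response in many cell types, was 0.78 higher without passing (adjusted p = 0.117), and Gata6 and Mecom were at -0.17 and 0.29. Rbpjl and Bhlha15 kept their calls when any 1 of the 16 libraries was left out. In the 18-library fit they stood at 9.86 and 9.90 (adjusted p = 7.29e-10 and 1.38e-08). That fit uses the Ctrb1 share itself and is no independent support. Without LIGEL replicate 4, 2 of the list's 7 calls were left, and Ptf1a had an adjusted p of 0.0516. The list median was 3.36 with 2 voom calls in the 12 remaining libraries, and Rbpjl stood at 6.11 by edgeR (voom adjusted p = 0.0806).

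PTF1A and RBPJL are known to read a compound sequence, an E-box beside a TGGGAA box, and the 250 bases before RefSeq's gene start (build GRCm38.p6) were searched for CACCTG and TGGGAA on both strands. Of 27025 genes with a promoter in the table, 19.4% held CACCTG, 24.1% held TGGGAA and 4.54% held both. Among the acinar transcription factors with a promoter, 4 of 6 held the E-box, 3 of 6 held TGGGAA and 2 of 6 held both. The Reg genes had both in 3 of 6, the receptors and channels in 3 of 12 and the granule and secreted genes in 0 of 9. Both were also found in 1 of 15 amino acid enzymes, 1 of 7 islet hormones, 1 of 16 endocrine machinery genes, 1 of 23 hypoxia and glycolysis genes and 0 of 18 type I interferon genes. The 3 stretches below, from a factor and 2 membrane proteins that went with Ctrb1, show how the pairs lie. They are written 5′ to 3′ on the gene's strand, with both motifs in capitals (CAGGTG and TTCCCA are the same motifs on the other strand). They come from chr2:164403075-164403132 (plus), chr1:93006268-93006315 (plus) and chr10:128401336-128401419 (minus). A match is a string in the sequence and does not show binding.
Rbpjl: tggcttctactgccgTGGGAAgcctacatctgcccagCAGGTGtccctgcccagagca
Aqp12: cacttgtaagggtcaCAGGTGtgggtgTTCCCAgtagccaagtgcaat
Slc39a5: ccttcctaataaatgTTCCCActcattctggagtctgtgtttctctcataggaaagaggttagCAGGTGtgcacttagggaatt

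Proteins that acinar cells pack into granules or secrete beside the enzymes went with Ctrb1. Of 17 tested, 12 were higher (70.6%, against 5.31% of all genes) and none lower. The list median was 5.73 against 0.02 for all genes. Sycn, the zymogen granule protein syncollin, was at 192, 432 and 5415 CPM in the acinar-rich set and at 0, 2.28 and 24.6 CPM in the acinar-poor set. The sets did not overlap, at 7.21 ± 1.38 (adjusted p = 0.0124). Gp2, the main glycoprotein of the granule membrane, was at 632, 1416 and 12298 CPM against 0.0582, 6.88 and 125 CPM, again without overlap (6.60 ± 1.46, adjusted p = 0.0196). Zg16, Tff2, Cuzd1, Serpini2 and Tmed6 were higher by 6.68 to 7.17, and the trypsin inhibitor gene Spink1 by 5.73.

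Nupr1, a stress-induced chromatin protein first described in pancreatitis, moved less but was measured in every library. It was at 244, 357 and 2010 CPM in the acinar-rich set and at 44.9, 55.6 and 88.0 CPM in the acinar-poor set, with no overlap and a log2 fold change of 2.85 ± 0.42 (adjusted p = 0.00607). It was called whichever 1 of the 16 libraries was left out. General fusion and docking genes of the same list, which many cell types use, gave no calls: Vamp8 was at 0.52, Vamp2 at -0.11 and Syt7 at -0.98. Without LIGEL replicate 4, 3 of the list's 12 calls were left. The list median was 4.80 in the 12 remaining libraries, with 0 calls by edgeR and 2 by voom, and in the 18-library fit 13 members were higher.

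Of 16 receptors, transporters and channels of acinar cells, 8 were higher (50%, against 5.31% of all genes) and none lower (median 1.66). Cckar, the cholecystokinin receptor, was at 41.9, 134 and 737 CPM against 0, 0.904 and 20.2 CPM. The sets did not overlap (5.28 ± 1.14, adjusted p = 0.0181, and 0.0777 without LIGEL replicate 4). The muscarinic receptor Chrm3, the other arm of the secretory stimulus, was higher by 3.42, the aquaporin Aqp12 by 6.55, the zinc transporters Slc39a5 and Slc30a2 by 5.58 and 3.4, and the glutamine transporter genes Slc38a5 and Slc38a3 by 6.56 and 5.79. The calcium release channels Itpr2 and Itpr3 (-0.04 and -0.44) and the transporter Slc12a2 (0.05) gave no call. There were 5 calls without LIGEL replicate 4 and 5 without IGEL replicate 4, and up to 10 with another library left out. In the 12 remaining libraries the median was 1.82 with 1 voom call, and Cckar stood at 4.28 by edgeR (voom adjusted p = 0.0562).

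Enzymes of amino acid and one-carbon metabolism followed, with 8 of 19 higher (42.1%, against 5.31% of all genes), none lower and a median of 1.73. The glutaminase gene Gls2 (chromosome 10, 128194457 to 128210004) was at 11.1, 19.2 and 234 CPM in the acinar-rich set and at 1.02, 1.63 and 3.0 CPM in the acinar-poor set. No library of one set reached the other (4.09 ± 0.64, adjusted p = 0.00731), and the call held with any 1 library left out. Cbs and Gnmt, of the methionine and transsulfuration pathways, were higher by 4.62 and 4.78. Gatm, which makes the precursor of creatine, was 1.73 higher without passing (adjusted p = 0.057). The serine synthesis genes Phgdh and Psat1 stood at -0.10 and -0.56 and Bcat1 at -0.89, none of them called. The count was 3 without LIGEL replicate 4, 5 without IGEL replicate 4 and 12 in the 18-library fit. Among the 12 remaining libraries the median was 1.70 with 1 voom call. Gls2 stood at 4.05 by edgeR, which called no gene there (voom adjusted p = 0.0445).

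All 6 Reg genes, which encode small secreted lectins made by acinar cells and strongly induced in pancreatitis, were higher in the acinar-rich set. Their median was 5.80, and 5.31% of all genes were higher. Reg3b (chromosome 6, 78370657 to 78373466) was at 1027, 3567 and 17249 CPM against 2.67, 19.2 and 496 CPM. The sets did not overlap (5.34 ± 1.14, adjusted p = 0.0176), although the acinar-poor libraries spread over a wider range among themselves than this fold change. Reg1, Reg2, Reg3a, Reg3d and Reg3g were higher by 5.68, 5.93, 5.92, 6.25 and 4.79. The family lies in 1 cluster on chromosome 6 and its members resemble each other, so reads that fit several of them make the split between single genes uncertain. The summed Reg level was 4108 to 87263 CPM in the acinar-rich set, 21.8 to 1359 CPM in the 4 acinar-poor libraries outside the A1 to A3 columns and 8.87 to 112 CPM in the 4 within them. No Reg gene was called without LIGEL replicate 4 and 2 were called without IGEL replicate 4, while all 6 were called in the 18-library fit (Reg3b 6.39, adjusted p = 1.91e-08). The 12 remaining libraries gave a median of 4.89 with 0 calls, and Reg3b stood at 4.30 by edgeR (voom adjusted p = 0.0568).

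**Figure D3:**
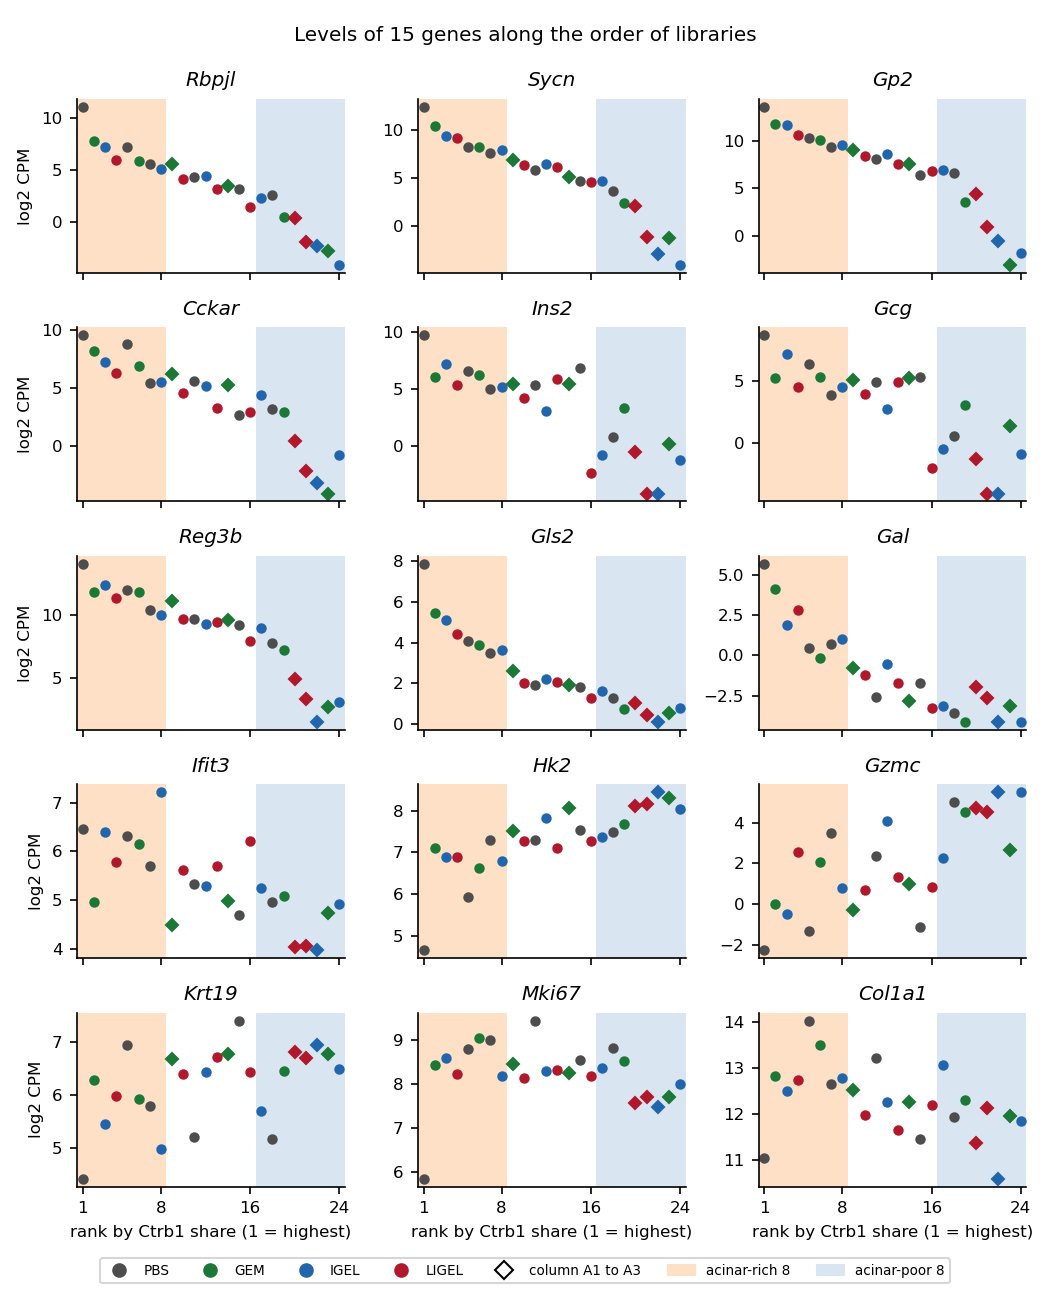
Log2 CPM of 15 genes in each of the 24 libraries, placed by rank of Ctrb1 share (1 is the highest), coloured by group, with diamonds for A1 to A3 columns and the acinar-rich and acinar-poor sets shaded. Rbpjl, Sycn and Gp2 fall along the whole order, Ins2 and Gcg are high through most of the middle libraries and drop in the acinar-poor set, Hk2 and Gzmc run the other way, and Krt19, Mki67 and Col1a1 overlap between the sets.

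Islet hormone transcripts went with acinar ones, and the endocrine machinery was divided. Of 8 islet hormone genes 7 were higher (median 5.21), and of 23 genes of the endocrine machinery 12 were higher and none lower (median 3.60). That is 87.5% and 52.2% higher, against 5.31% of all genes. The summed level of the machinery list ran the other way, at 472, 929 and 1244 CPM in the acinar-rich set against 1004, 1738 and 1808 CPM in the acinar-poor set. Most of that sum came from the secretory granule genes Ptprn and Cpe, neither of them called. Ins2, an insulin gene (chromosome 7, 142678656 to 142743381 in the deposited table), was at 33.4, 72.7 and 861 CPM in the acinar-rich set and at 0, 0.599 and 10.5 CPM in the acinar-poor set. The sets did not overlap (6.55 ± 1.07, adjusted p = 0.00731). Gcg, the glucagon gene of alpha cells, was at 14.3, 39.1 and 421 CPM against 0, 0.566 and 8.06 CPM, also apart (6.14 ± 1.06, adjusted p = 0.00823). Ins1, Iapp, Pyy, Sst and Ppy, from beta, delta and gamma cells, were higher by 6.10, 5.61, 4.82, 4.68 and 3.76, and Ghrl by 0.45 without passing.

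The islet and acinar signals did not run in step through the middle of the order. The middle libraries had Ins2 at 0.142, 43.9 and 117 CPM, so that their median reached into the acinar-rich range of Ins2, while their median of Rbpjl, 14.5 CPM, was below the lowest acinar-rich library. In the 18-library fit the islet hormone median was 5.02, that of the granule list 7.17 and that of the Reg list 7.03. Between the sets these medians were 5.21, 5.73 and 5.80. The scales of these fits differ, so lists are to be compared only within 1 fit. Ins2 stood at 5.45 in the 18-library fit (adjusted p = 0.0131).

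Within the endocrine machinery, genes of the mature secretory cell were higher: the beta cell phosphatase gene G6pc2 by 7.05 (called with any 1 library left out), the prohormone convertase Pcsk2 by 5.46, the granule proteins Chga and Chgb by 4.21 and 3.60, and the factors Nkx2-2 and Pdx1 by 4.10 and 3.92. Pax6, Isl1 and Insm1, factors that mark neuroendocrine lineages in general, were not called. Pax6 was at 5.43, 10.1 and 12.7 CPM against 8.07, 9.93 and 12.4 CPM (-0.06), and Isl1 was at 2.37, 7.43 and 8.85 CPM against 7.21, 10.8 and 15.3 CPM (-0.81, adjusted p = 0.0878). Ptprn was at 29.7, 577 and 831 CPM against 643, 1162 and 1321 CPM (-1.02, adjusted p = 0.179) and Cpe at 95.4, 209 and 302 CPM against 233, 350.2 and 551 CPM (-0.90, adjusted p = 0.0505). Insm1 was at -0.36 without a call. Without LIGEL replicate 4 the calls fell to 3 of 8 hormones and 7 of 23 machinery genes. In the 12 remaining libraries the medians were 4.84 and 3.25 with 2 and 1 voom calls. Ins2 stood at 5.91 by edgeR (voom adjusted p = 0.0507).

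The duct list was split, with 9 of 19 genes higher, 1 lower and a median of 1.49. That is 47.4% higher and 5.26% lower, against 5.31% and 2.17% of all genes. Muc1, an apical mucin (chromosome 3, 89229057 to 89233381), was at 27.9, 75.7 and 333 CPM in the acinar-rich set and at 3.15, 5.85 and 20.4 CPM in the acinar-poor set. There was no overlap (3.41 ± 0.55, adjusted p = 0.00731), and the call held with any 1 library left out. Ambp, Prom1 and Pkhd1 were higher by 4.95, 3.96 and 3.47, and the chloride channel gene Cftr by 2.17 without passing (adjusted p = 0.0622).

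Krt19, Sox9, Spp1 and Onecut2 had the opposite sign. The duct keratin gene Krt19 was at 21.3, 58.0 and 124 CPM against 36.1, 97.2 and 124 CPM (-0.59, adjusted p = 0.319), and Sox9 at 24.2, 31.7 and 75.5 CPM against 31.3, 58.2 and 90.2 CPM (-0.83, adjusted p = 0.0945). Both overlapped widely between the sets. Onecut2 was the duct gene that was called lower, at -0.78, a call that was kept in 3 of the 16 fits without 1 library. The duct list had 2 higher calls without LIGEL replicate 4, 3 without IGEL replicate 4, 4 without PBS replicate 3, LIGEL replicate 2, IGEL replicate 6 or GEM replicates 1, 4 or 6, and 5 without GEM replicate 5, IGEL replicate 1 or LIGEL replicate 1. It had 13 without IGEL replicate 5, and in the 18-library fit 12 were higher and 1 lower. The 12 remaining libraries gave a median of 1.48 with 4 voom calls. Muc1 stood at 3.03 by edgeR, which called no gene there (voom adjusted p = 0.0496).

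Epithelial genes divided in a similar way. Of 18 tested, 9 were higher (50%, against 5.31% of all genes) and none lower, with a median of 2.15. Prss8, a membrane serine protease of polarised epithelia, was at 6.56, 17.1 and 105 CPM against 0.0495, 0.372 and 2.21 CPM, without overlap (4.90 ± 0.76, adjusted p = 0.00731). The epithelial splicing factors Esrp1 and Esrp2 were higher by 3.87 and 4.26, the tight junction gene Cldn3 by 3.42 and Epcam by 2.07 (adjusted p = 0.0444), while E-cadherin, Cdh1, was 2.28 higher with an adjusted p of 0.0505. The keratin genes Krt8 and Krt18 were not called. Krt8 was at 241, 444 and 579 CPM in the acinar-rich set and at 436, 586 and 757 CPM in the acinar-poor set (-0.49, adjusted p = 0.148). The count of higher epithelial genes was 1 without LIGEL replicate 4, 2 without each of PBS replicate 3, GEM replicate 1 and IGEL replicate 4, 5 without each of GEM replicates 4, 5 and 6, IGEL replicate 6 and LIGEL replicate 2, and 12 without PBS replicate 4 or IGEL replicate 5. In the 12 remaining libraries the median was 1.63 with 4 voom calls. Prss8 stood at 4.08 by edgeR, which called no gene there (voom adjusted p = 0.0445).

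Among all other genes, those with the largest positive changes included several with no place in the lists. Nphs1, the gene of the adhesion protein nephrin (chromosome 7, 30458315 to 30487223), was at 3.88, 11.6 and 203 CPM in the acinar-rich set and at most 0.414 CPM in the acinar-poor set, where the median was 0. It was called in all 16 fits without 1 library (7.86 ± 1.01, adjusted p = 0.00504). In the 12 remaining libraries it stood at 7.17 by edgeR (voom adjusted p = 0.0585). Aldh1a7, of aldehyde oxidation, Gal, a neuropeptide gene, and Sostdc1, of WNT and BMP antagonism, were higher by 7.89, 7.2 and 7.09, each called in all 16 of those fits. Ces1e and Rnf212 had no count in any acinar-poor library, so their folds are lower bounds against a floor of 3 counts over the 8 libraries together: Ces1e was at least 281-fold and Rnf212 at least 176-fold higher. PBS replicate 5 carried much of both, at 25.9 and 22.6 CPM against at most 4.94 and 1.29 CPM in the other acinar-rich libraries. Without it the bounds were 156-fold for Ces1e and 63.3-fold for Rnf212. Ces1e has near-identical neighbours, which makes its count uncertain, and Rnf212 kept its call in only 4 of the 16 fits.

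Secretory cells depend on protein import into the endoplasmic reticulum, and few genes of the general machinery were called. Of 29 translocation and vesicle transport genes 0 were higher and 1, the coat gene Sec24d, was lower (-0.49), and the median was near 0. That is 3.45% lower, against 2.17% of all genes. Leaving out PBS replicate 5 made 3 of the 29 higher, when 10.3% of all genes were. Sec24d kept its call in 10 of the 16 fits without 1 library. Of 33 chaperones and stress genes 4 were higher and 1 lower (median 0.02), which is 12.1% and 3.03% against 5.31% and 2.17% of all genes. Without PBS replicate 5 there were 7 and 5, against 10.3% and 8.64% of all genes. In 11 of the other fits without 1 library, 1 or 2 were higher. Among the 4 higher genes were Derl3, of the degradation pathway, at 4.75 and the oxidase gene Ero1lb at 2.36. The related oxidase Ero1l, which is induced by low oxygen, was the lower one. It was at 43.1, 47.7 and 62.4 CPM against 73.1, 138 and 215 CPM, with every acinar-poor library above every acinar-rich one (-1.26 ± 0.23, adjusted p = 0.0101) and a call in all 16 fits without 1 library. The translocation and chaperone medians were 0.0027 and 0.16 in the 12 remaining libraries. Ero1l stood at -0.92 by edgeR, which called no gene there (voom adjusted p = 0.0496).

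Markers of tissues that surround or run through the normal lobule were mixed. The lipase gene Lpl, listed for fat cells, was at 43.9, 59.1 and 199.9 CPM against 9.02, 13.9 and 41.2 CPM, with no overlap (1.83 ± 0.38, adjusted p = 0.0153, and 0.0685 without LIGEL replicate 4). Adipoq, the defining adipocyte gene, was too low to be tested, and 2 of 8 adipocyte genes were called higher (25%, against 5.31% of all genes). Of 10 nerve and Schwann cell genes 3 were higher (30%), Mbp by 1.64, Ngfr by 2.0 and Pmp22 by 0.62. Among fibroblast and matrix genes 2 of 26 were higher (7.69%, against 5.31% of all genes), Clec3b by 4.09 and Pi16 by 2.04, which mark adventitial fibroblasts, while Col1a1, the main collagen gene, overlapped at 2110, 6917 and 16634 CPM against 1532, 3916 and 8488 CPM (0.85, adjusted p = 0.199).

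In the 17 endothelial genes 2 were higher, Tek by 1.23 and Eng by 0.93, and Flt1 was lower by 0.85 on the log2 scale. That is 11.8% higher and 5.88% lower, against 5.31% and 2.17% of all genes. Prox1, a lymphatic factor that acinar and islet lineages also use, was higher by 2.50. Of 5 liver genes 3 were higher (60%, against 5.31% of all genes), Ttr, Alb and Ahsg. Of these, Ttr is also an alpha cell gene and Alb stood at most at 3.20 CPM in any acinar-rich library. Of the nerve, fibroblast, endothelial, lymphatic and adipocyte calls, 0 were left without LIGEL replicate 4, and leaving out IGEL replicate 4 left 1, in the adipocyte list. Several of these calls also went when PBS replicate 3 or a GEM library was left out, while 11 fibroblast and 6 endothelial genes were higher without IGEL replicate 5, when 12.6% of all genes were. Liver genes gave 1 call without LIGEL replicate 4. The lymphatic median went from 1.59 to 0.53 in the 12 remaining libraries, and the medians were 0.61 for fibroblasts, 0.41 for endothelium, 0.44 for adipocytes, 0.36 for nerve and 1.91 for liver. There voom called Clec3b and, in the lower direction, 1 endothelial gene, and Lpl stood at 1.54 by edgeR (voom adjusted p = 0.052).

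A broad set of type I interferon response genes was higher in the acinar-rich set by a smaller amount. Of 24 tested, 19 were higher (79.2%, against 5.31% of all genes) and none lower. All 24 had a positive fold change (median 1.15), as had 9119 of all 17733 genes. Ifit3, an RNA-binding antiviral protein gene (chromosome 19, 34583531 to 34588731), was at 31.0, 75.3 and 148 CPM against 15.6, 28.4 and 38 CPM. The sets overlapped at their edges (1.46 ± 0.26, adjusted p = 0.0094). Oas2, of the RNA-sensing synthetases, was at 86.3, 144 and 776 CPM against 8.5, 28.8 and 68 CPM, and was the only gene of the 24 whose sets did not overlap (2.29 ± 0.47, adjusted p = 0.0157). Ifit1, Mx1, Irf7 and Bst2 were higher by 1.44, 1.38, 1.46 and 1.03.

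The interferon difference moved with the A1 to A3 columns. The summed level of the 24 genes was 1261 to 3643 CPM in the acinar-rich set, 1292 to 1533 CPM in the 4 acinar-poor libraries outside those columns and 652 to 1049 CPM in the 4 within them. The acinar-poor libraries outside the columns thus lay inside the acinar-rich range, but the low end of that range was a single library, GEM replicate 6. Their median was 1346 CPM, against 2289 CPM in the acinar-rich set. The part of the columns in the difference was not tested apart from the fits given here. In the 18-library fit 11 of the 24 were higher and the median was 0.92, and 4 were when PBS replicate 5 was left out too. Ifit3 stood at 1.24 (adjusted p = 0.0428) and 1.14 (adjusted p = 0.0752) in these. None of the 24 was called without LIGEL replicate 4, and 12 were without each of GEM replicate 1, GEM replicate 4 and IGEL replicate 4. The 12 remaining libraries gave a median of 0.82 with 1 voom call, and Ifit3 stood at 1.24 by edgeR (voom adjusted p = 0.0635).

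Genes that respond to type I interferon are known to carry a response element near their start, searched here as GAAA, any 2 bases, then GAAA. In the 250 bases before the start it was found in 9 of 18 list genes with a promoter and in 3.46% of all 27025 promoters, both strands searched. The stretches below belong to 3 genes that were higher, with the matches in capitals, from chr19:34583392-34583431 (plus), chr19:34640785-34640828 (plus) and chr8:71537572-71537611 (minus), GRCm38.p6. Ifit1 holds 2 matches, and Bst2 holds 2 that overlap.
Ifit3: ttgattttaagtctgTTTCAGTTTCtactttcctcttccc
Ifit1: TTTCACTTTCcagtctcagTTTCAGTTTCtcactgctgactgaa
Bst2: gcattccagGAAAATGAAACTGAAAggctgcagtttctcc

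Other interferon and antigen genes moved less. Of 22 genes for MHC class I and the interferon gamma response, 5 were higher (Gbp3, Irgm1, Igtp, Psmb10 and H2-T23, at 0.63 to 1.12). That is 22.7%, against 5.31% of all genes. The class I chains H2-K1 and H2-D1 and B2m were at 0.06, -0.02 and -0.05. Of 10 MHC class II genes none was called (median 0.90), and 6 were called without IGEL replicate 5, when 12.6% of all genes were higher. The count of 5 became 0 without LIGEL replicate 4, GEM replicate 1, GEM replicate 4 or IGEL replicates 2, 4 or 6, 2 without PBS replicate 3 or LIGEL replicates 1 or 2, 3 without GEM replicate 6, 10 without IGEL replicate 5 and 13 without PBS replicate 5. The class I and class II medians were 0.34 and 0.85 in the 12 remaining libraries, with no call.

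Hypoxia and glycolysis genes ran against Ctrb1. Of 24 tested, 12 were lower in the acinar-rich set (50%, against 2.17% of all genes) and none higher. All 24 had a negative fold change (median -0.93), while 9119 of all 17733 genes had a positive one. Hk2, the first enzyme of glycolysis (chromosome 6, 82725025 to 82774454), was at 24.9, 114 and 158 CPM in the acinar-rich set and at 166, 271 and 350.3 CPM in the acinar-poor set. All acinar-poor libraries were above all acinar-rich ones (-1.20 ± 0.30, adjusted p = 0.0341). Differences of mean log2 CPM were -1.54 (PBS), -1.14 (GEM), -1.11 (IGEL) and -1.26 (LIGEL). The PBS value rests on 1 acinar-poor library, replicate 3 at 7.50 log2 CPM, and acinar-rich PBS replicate 4 was close to it at 7.30. The LIGEL value sets 1 acinar-rich library against 2 acinar-poor ones, both in A1 to A3 columns. The glucose transporter gene Slc2a1 was at 16.5, 99.8 and 151 CPM against 158, 319 and 485 CPM, also apart (-1.51 ± 0.39, adjusted p = 0.0358). Bnip3, of mitophagy, Ndrg1 and Pfkp were called lower at -1.39, -1.62 and -0.92, while Ldha and Vegfa, at -0.74 and -1.16, were not called.

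The number of calls in this list changed with most single libraries. No member was called without GEM replicate 1, GEM replicate 4, IGEL replicate 2, IGEL replicate 4, IGEL replicate 6 or LIGEL replicate 4. There were 2 calls without IGEL replicate 1 or LIGEL replicates 1 or 2, 3 without GEM replicate 6, 4 without PBS replicate 3 and 5 without PBS replicate 1. There were 20 without PBS replicate 4, 22 without PBS replicate 5 and 18 without IGEL replicate 5. The summed level was 2150 to 8809 CPM in the acinar-rich set, 8278 to 13210 CPM in the acinar-poor libraries outside the A1 to A3 columns and 13678 to 16081 CPM in those within. In the 18-library fit 7 members were lower with a median of -1.0, and Hk2 stood at -1.19 (adjusted p = 0.0476). The 12 remaining libraries gave a median of -0.77 with 0 calls, and Hk2 stood at -0.98 by edgeR (voom adjusted p = 0.0635).

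**Figure D4:**
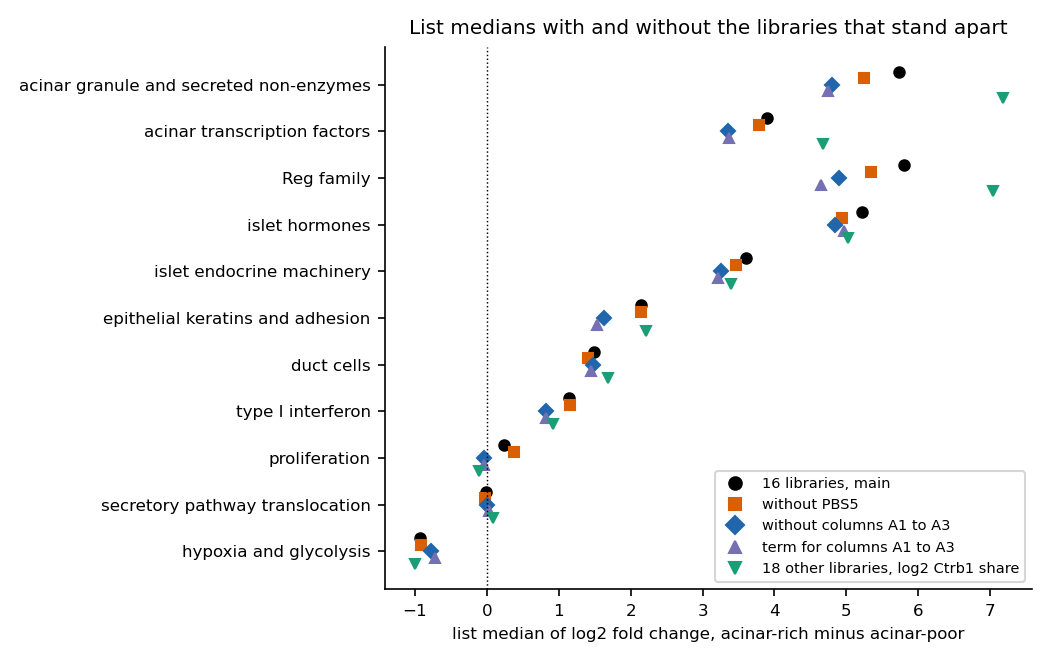
Median log2 fold change of 11 gene lists in 5 fits, acinar-rich minus acinar-poor: all 16 libraries, without PBS replicate 5, without or with a term for the A1 to A3 columns, and the log2 Ctrb1 share in the 18 other libraries. The acinar, Reg and islet medians stay above 3, hypoxia and glycolysis stays between -1.0 and -0.72, and proliferation crosses 0. The medians of the 18-library fit are on their own scale.

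The core of the hypoxia response element, ACGTG, was present in the 250 bases before the start of 16 of 23 hypoxia and glycolysis genes (69.6%) and of 18.5% of all 27025 promoters, on either strand. It was also above the share of all promoters in lists of higher genes, with 6 of 12 acinar receptors and channels (50%), 7 of 16 endocrine machinery genes (43.8%) and 6 of 15 amino acid enzymes (40%), while 0 of 6 acinar transcription factors, 0 of 6 Reg genes and 1 of 18 interferon genes (5.56%) held it. A short string is found often, and the 3 stretches below, from genes that were lower, show it in capitals at chr6:82774487-82774521 (minus), chr4:119108694-119108728 (plus) and chr7:138909594-138909628 (minus), GRCm38.p6. In Bnip3 the matches on both strands overlap.
Hk2: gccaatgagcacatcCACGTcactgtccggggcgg
Slc2a1: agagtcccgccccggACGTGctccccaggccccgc
Bnip3: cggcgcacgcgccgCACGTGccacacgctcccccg

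Among the 385 lower genes, several with the most negative fold changes encode cytotoxic proteins. Gzmc, a granzyme of natural killer and activated T cells (chromosome 14, 56231441 to 56234656), was at 0.149, 1.29 and 11.4 CPM in the acinar-rich set and at 4.80, 24.8 and 45.5 CPM in the acinar-poor set. The sets overlapped (-3.19 ± 0.84, adjusted p = 0.037). Gzmg and Gzme, in the same cluster, were at -3.94 and -3.41, and their likeness to Gzmc makes the split between them uncertain. Prf1, the pore-forming perforin (chromosome 10, 61297833 to 61304680), was at 1.49, 4.36 and 12 CPM against 6.17, 21.4 and 41.2 CPM, with overlap (-2.29 ± 0.51, adjusted p = 0.0207). The adaptor gene Sh2d1b2, of natural killer cells, was at -3.43.

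Genes of T cells as a whole did not share that direction. Of 23 T and NK genes, 1 was lower (Prf1) and 1 higher (Klrk1, at 1.15), with a median of 0.73. That is 4.35% in each direction, near the 2.17% lower and 5.31% higher of all genes. Cd3e and Cd8a stood at 0.88 and 0.93 without a call and Gzmb at -0.77 (adjusted p = 0.0639). In the acinar-poor libraries outside the A1 to A3 columns Prf1 was at 7.04 to 41.2 CPM and Gzmc at 4.80 to 45.0 CPM, and in those within at 6.17 to 36.8 and 6.25 to 45.5 CPM. Prf1 lost its call without PBS replicate 3, IGEL replicate 4 or LIGEL replicate 4 (adjusted p at most 0.0689) and kept it in the 18-library fit (-2.58, adjusted p = 0.0224), where Gzmc stood at -3.48 (adjusted p = 0.0592). Gzmc was called in 4 of the 16 fits without 1 library. In the 12 remaining libraries, where edgeR called no gene, its fold changes were -2.68 for Prf1 and -3.67 for Gzmc (voom adjusted p = 0.0496 and 0.0543).

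Mmp10, a matrix protease gene, was at 0.149, 8.5 and 15.6 CPM in the acinar-rich set and at 16.7, 56.3 and 102 CPM in the acinar-poor set. The sets did not overlap (-2.52 ± 0.64, adjusted p = 0.0347), and the gene was called in 5 of the 16 fits without 1 library. In the 12 remaining libraries Mmp10 stood at -2.08 by edgeR (voom adjusted p = 0.0647). Serpinb2, a plasminogen activator inhibitor, was at -2.34, and the heat shock genes Hspa1a and Hspa1b at -2.17 and -2.02. The heat shock pair is near-identical, so its split is uncertain, and Hspa1b was at 5.88 to 32.4 CPM in the acinar-poor libraries outside the A1 to A3 columns and at 34.0 to 54.9 CPM in those within. The part of the columns in that difference was not tested by itself.

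Among the immune cell lists the shares called higher were near that of all genes, 5.31%, or at 0. Of 28 proliferation genes none was called in either direction (median 0.23). Without PBS replicate 5, where Mki67 was lowest, 5 were higher, when 10.3% of all genes were. Mki67 was at 56.9, 367 and 533 CPM against 177, 232 and 454 CPM (0.30, adjusted p = 0.592), and its sign changed to -0.05 in the 18-library fit. In macrophages and monocytes 1 of 24 genes was higher (Ly6c2, at 1.58), in B and plasma cells 1 of 16 (Derl3, listed there too), and in neutrophils 0 of 10, which is 4.17%, 6.25% and 0%. Smooth muscle and pericytes, mesothelium, skeletal muscle, erythroid cells and lymph node stroma had no call in the 16 libraries, nor did the mitochondrial genes. Leaving out IGEL replicate 5, which raised the share of all genes called higher to 12.6%, made 10 of 24 macrophage, 7 of 23 T and NK, 7 of 12 smooth muscle and pericyte, 3 of 5 lymph node stroma, 1 of 5 mesothelial and 1 of 10 neutrophil genes higher. None of these lists had a higher call in the 12 remaining libraries, and the medians were -0.03 for proliferation, 0.48 for macrophages, 0.75 for T and NK cells, 0.46 for smooth muscle and 0.72 for lymph node stroma. The pan-leukocyte gene Ptprc was 0.64 higher without passing (adjusted p = 0.127). Xist, which is expressed from an X chromosome in female cells, was at 336 to 2945 CPM in the acinar-rich set and at 109 to 443 CPM in the acinar-poor set (1.48, adjusted p = 0.0527).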

How the data were processed

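The authors deposited a table of unnormalized read counts for 54532 genes in 24 libraries, together with gene coordinates and lengths. Per the submitters' processing notes, HISAT2 and featureCounts of Subread were used with mouse build mm10; versions, strandedness and annotation release are not given in the sources used here, so antisense or overlapping genes cannot be separated.

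Libraries were ordered by raw Ctrb1 count over the column total, and the 8 highest were compared with the 8 lowest. The members and gene lists were chosen with earlier results of these data known. In R 4.3.3 with edgeR 4.0.16, filterByExpr (minimum count 10, minimum total 15) kept 17769 genes, leaving 0.108% of counts out. The model was group plus set, with TMM factors and the robust quasi-likelihood F test on 11 residual degrees of freedom. P-values were Benjamini-Hochberg adjusted over all genes and called under 0.05. The 36 acinar enzymes stayed in the fit and out of the counts. CPM is not scaled by length, so levels of different genes are not compared. Log2 CPM used a prior count of 2.

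Lists are described by counts and medians, with no list test. The naming rule took up to 15 genes per direction with the largest change (absolute log2 fold change 1 or more, mean level 1 CPM or more in the higher set, 7 of 8 libraries beyond the other median), up to 4 members by p in lists with calls, 2 in others, and a fixed set. Some genes are not reported here. Other list members were named after their values were seen, among them Oas2, Slc2a1, Bnip3, Pax6 and Isl1.

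Alternatives were DESeq2 1.42.0, limma 3.58.1 voom with sample quality weights, RLE factors, no composition factor, TMM without enzymes, no filter, no group term, a term for or removal of the A1 to A3 libraries, all 24 libraries with log2 Ctrb1 share, the replicate block and leaving out each library. The 18-library and 17-library fits, voom with the A1 to A3 settings, the 24-library fit with that term and PBS replicate 5 left out together with that term were chosen after seeing the data. Of the replicate numbers, same-numbered libraries of different groups had correlations of deviations from -0.63 to 0.74, so the numbers do not pair them. No libraries were near duplicates: the closest pair had a chi-square of 15.4 per gene, against 1 for sampling noise. That pair was LIGEL replicates 1 and 2, both acinar-poor and both in columns whose names start with A3. The fitting code was tested on simulated data. Promoters are RefSeq's, GRCm38.p6, of which 250 bases before the start were searched.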

Additional observations from a re-analysis of the deposited data

Results flagged for a closer look

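In 270 checks of 1 gene in 1 set of 8 libraries, 31 had a highest or lowest library whose distance to the next was unusually large for the set's range, where chance alone flags about 5% of groups. Values here are log2 CPM. PBS replicate 5, with the highest acinar enzyme share, was the library in 24 of them.

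Within the acinar-rich set PBS replicate 5 was far above the others in acinar genes, at 11.1 for Rbpjl, 10.5 for Spink1, 9.44 for Erp27, 15 for Reg1 and 9.23 for Slc38a3. The same held for the metabolic genes Cbs at 9.23, Gls2 at 7.87 and Gatm at 10.2, and for the islet genes Ins2 at 9.75 and Sst at 4.98. It was also the highest for Rnf212 at 4.50, Slc10a5 at 3.56, Ambp at 5.90, Prox1 at 5.48, Acvr1c at 3.68 and Sesn1 at 7.07.

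PBS replicate 5 was the lowest acinar-rich library for Mki67 at 5.83, Aurkb at 3.98 and Kif23 at 3.76, which act in cell division, and for Pfkp at 5.89, Sec24d at 6.86, Mmp10 at -2.28, Serpinb2 at -4.13 and Chrna1 at -4.13.

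IGEL replicate 4 was the highest acinar-rich library for the skeletal muscle genes Tnni2 at 3.33 and Atp2a1 at 6.07. PBS replicate 4 was the lowest for Alb at -4.13 and Hba-a1 at -1.56. Among the acinar-poor libraries IGEL replicate 5 was the highest for Slc10a5 at -3.16, PBS replicate 3 the lowest for Hspa1a at -0.47 and IGEL replicate 6 the lowest for Bnc1 at -0.98.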

How the results depend on the processing

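The 941 higher and 385 lower genes, enzymes left out, were 2393 and 1201 with DESeq2, 3494 and 2984 with voom, 2682 and 1647 without the group term, and 3090 and 1774 with the log2 Ctrb1 share in all 24 libraries (2079 and 858 with a term for the A1 to A3 columns). They were 0 and 0 with that term or without those libraries between the sets, 88 and 3 with the term and without PBS replicate 5, 226 and 13 with voom without those libraries, and 579 lower with voom and the term. In the 18-library fit 1424 were higher. The lower count was 157 without a composition factor, which shifted the median of all genes to -0.13, and 162 without the expression filter. RLE factors, TMM without the enzymes and the 17-library fit kept both counts within 1.5 times. Leaving out 1 library gave 105 to 2249 higher and 6 to 1549 lower genes. Apart from the construction of each setting, the cause of these shifts was not tested.

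With the replicate block 794 genes were higher and 533 lower, of which 596 and 209 were shared; the numbers do not pair the libraries, and 5 of 24 libraries correlated best with their own number. Signs reversed only in genes that were not called: Aurkb at -0.0217 in the 18-library fit, Kif23 at -0.0739 with the block, Ltf at 0.0186 with all 24 libraries, the mitochondrial genes mt-Nd5 (-0.0125 and -0.0213) and mt-Nd6 (-0.0812 and -0.14) with voom without those libraries and with their term, and Mki67 at -0.0133 with the A1 to A3 term, -0.00253 without those libraries, -0.12 with the block and -0.0548 in the 18-library fit. Depth of 27.1 to 40.5 M counts limits genes near 0 in the acinar-poor set, whose fold changes depend on the prior count. With 11 residual degrees of freedom, 4 of the 8 acinar-poor libraries in A1 to A3 columns and 1 acinar-rich LIGEL library, the set, column and group parts of a difference can be told apart only in part.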
